A study of Mus musculus with 7 samples.

Results

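The antioxidant and glutathione genes of the mouse hippocampus were compared between animals with noise-induced hidden hearing loss (NIHHL) and blank controls. The group was a list of 40 gene symbols covering superoxide dismutases, catalase, glutathione peroxidases, peroxiredoxins, the thioredoxin and glutaredoxin systems, glutathione synthesis, glutathione transferases, and the NRF2 pathway with its targets. All 40 symbols were found among the 21965 rows of the deposited gene table, and all 40 were among the 14417 genes with enough counts to be tested. The NIHHL group held 4 hippocampal libraries from mice exposed to 110 dB noise for 2 h, with tissue taken 1 month later. The Control group held 3 hippocampal libraries from mice labelled as blank controls. The labels name no strain, sex, age or genotype. Nor do they tie the libraries to separate mice, and p-values therefore cover only the variation among these samples, which may be technical.

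Hidden hearing loss is damage to hearing that ordinary threshold tests miss. Antioxidant enzymes remove reactive oxygen in steps: superoxide dismutases turn superoxide into hydrogen peroxide, and catalase, glutathione peroxidases and peroxiredoxins reduce the peroxide to water. Glutathione and thioredoxin carry the reducing power for the glutathione peroxidases and peroxiredoxins, and both carriers are regenerated by their reductases with NADPH. The transcription factor NRF2, encoded by Nfe2l2, is held in check by KEAP1 and switches on many of these genes under oxidative or electrophilic stress. In brain tissue much of the glutathione machinery is known from astrocytes.

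NRF2 acts through the antioxidant response element, a short promoter motif whose core was searched as TGACNNNGC on both strands. RefSeq promoter windows (GRCm38.p6, 250 bases before to 50 after a gene's start) were found for 33 of the 40 genes. Of these genes, 8 (24.2%) held a match, against 14% of all genes with a window. A gene can have several windows. Counted by window, 17.4% of the 46 windows of the list held a match, against 12.4% of all 32851. Each match is printed from 5′ to 3′ on the gene's strand with 10 bases on either side and the 9 matched bases in capitals, because these are the genes of the list whose start regions carry the letters that NRF2 is known to bind.

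Gclm (chr3:122245413-122245441, + strand): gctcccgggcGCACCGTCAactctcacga
Gstm5 (chr3:107895802-107895830, + strand): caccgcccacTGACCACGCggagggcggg
Gstm7 (chr3:107931725-107931753, − strand): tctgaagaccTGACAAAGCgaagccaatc
Nfe2l2 (chr2:75704885-75704913, − strand): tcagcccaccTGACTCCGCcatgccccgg
Prdx1 (chr4:116685456-116685484, + strand): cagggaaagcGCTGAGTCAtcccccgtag
Sod1 (chr16:90220696-90220724, + strand): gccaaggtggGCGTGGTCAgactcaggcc
Srxn1 (chr2:152105542-152105570, + strand): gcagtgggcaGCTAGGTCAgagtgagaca
Txnrd1 (chr10:82859104-82859132, + strand): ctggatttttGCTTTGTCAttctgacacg

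The match of Gclm began 134 bases before the start, that of Prdx1 133 bases and that of Sod1 56 bases before it. Such a match is a description of the letters and not a measured binding site. The 8 genes lay on both sides of 0: Gclm, Gstm7, Nfe2l2 and Txnrd1 had a log2 fold change above 0, while Gstm5, Prdx1, Sod1 and Srxn1 had one below it, and none passed the test described below.

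A second promoter is shown because Txnip had the smallest p of the 40 genes. Txnip, which encodes a protein that binds and inhibits thioredoxin, is known to be induced by glucose through a carbohydrate response element. Such an element was searched as 2 copies of CACGNG with 5 bases between them, on both strands of the 250 bases before each start. It occurred in 0.0457% of all 32851 windows and in 1 of the 46 windows of the list, that of Txnip (GRCm38.p6, chr3:96557707-96557956, + strand), where it began 85 bases before the start and is printed in capitals. No TGACNNNGC match lay in that window. The pattern of 2 copies was chosen for an element already known for Txnip, so its match there was set in advance. The shares describe the letters and lend no support to the difference of Txnip.

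Txnip: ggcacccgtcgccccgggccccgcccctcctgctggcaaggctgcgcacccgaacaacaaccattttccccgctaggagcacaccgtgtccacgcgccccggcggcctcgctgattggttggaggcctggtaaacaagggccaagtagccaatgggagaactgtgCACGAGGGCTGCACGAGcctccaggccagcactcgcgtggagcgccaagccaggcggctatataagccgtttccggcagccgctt

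Total counts ran from 16982198 to 21585789 in NIHHL and from 14871367 to 24515138 in Control, and the 40 genes had between 32 and 7662 counts in each library. Levels are given as CPM, counts relative to library size after TMM scaling (trimmed mean of M values). Markers of hippocampal neurons were present in every library, with a summed level of 10 genes of 8441 to 9200 CPM in NIHHL and 8319 to 9688 CPM in Control. Libraries differed in a trend with transcript length and in the level of choroid plexus markers, and these values are given beside the genes they touch.

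No gene of the list passed the test between NIHHL and Control, and most differences were small. By edgeR's quasi-likelihood test with Benjamini-Hochberg adjustment over all genes, 0 of the 40 genes were called at an adjusted p under 0.05, as were 0 (0%) of all 14417 genes. Before adjustment, 2 of 40 had a p under 0.05, against 3.63% of all genes; Txnip was higher in NIHHL, as were 2.32% of all genes, and Glrx lower, as were 1.31%. DESeq2 gave the same 2 genes before adjustment, against 2.46% of all genes, and 0 of 40 after it, against 0.022%. The fitted log2 fold change (NIHHL minus Control) was above 0 for 16 genes and below 0 for 24, while 49.9% of all genes were above 0; counts of higher and lower genes go by this sign throughout. The median log2 fold change was -0.03, against -0.0005 over all genes, with a range from -0.26 for Glrx to 0.34 for Gpx8. In 1 of 40 genes, Gclc, the groups did not overlap, compared with 5.2% of all genes; NIHHL was above Control in Gclc, as in 2.84% of all genes, and 2.37% had NIHHL below.

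The intervals show how large a difference these libraries leave room for. The standard error of a log2 fold change ran from 0.06 to 0.45 over the 40 genes, with a median of 0.11. The 95% interval lay within a 1.5-fold change either way for 34 of 40 genes and within 2-fold for 39. The exception at 2-fold was Gpx8, whose interval ran from -0.74 to 1.42 on the log2 scale. A single library carried weight in the direction counts: without Control replicate 2, 30 of 40 genes were higher in NIHHL, the median log2 fold change of the 40 was 0.05, and 51.3% of all genes were higher.

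**Figure D1:**
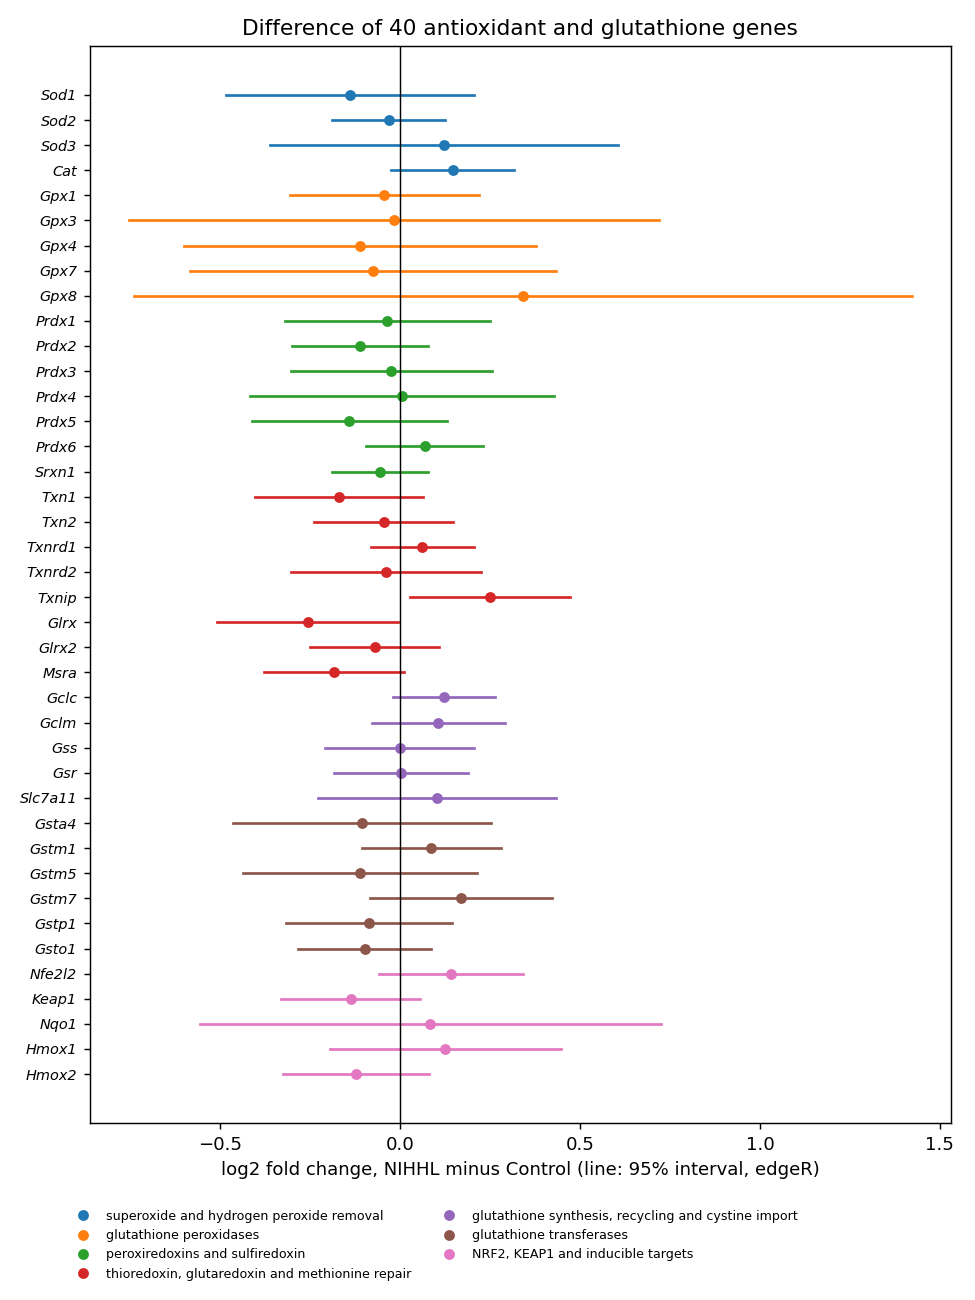
Log2 fold change, NIHHL minus Control, of each of the 40 genes on the x axis, with its 95% interval from edgeR as a line and the genes grouped by role down the page. The interval of Txnip lies above 0 and that of Glrx just below it before adjustment, and the widest interval is that of Gpx8.

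The superoxide dismutases and catalase came on either side of 0. Cat, the peroxisomal enzyme that splits hydrogen peroxide, was at 86.7, 75.5, 80.2 and 74.4 CPM in NIHHL replicates 1 to 4, against 67.6, 76.7 and 70.4 CPM in Control replicates 1 to 3. Control replicate 2 lay within the NIHHL range and the other Control libraries below it. Its log2 fold change was 0.15 (SE 0.08, 95% interval -0.02 to 0.32), with an adjusted p of 0.996 by edgeR.

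Sod1, the cytosolic superoxide dismutase, was at 164.4, 142.2, 154.8 and 114.3 CPM in NIHHL, against 127.5, 190.9 and 157.0 CPM in Control. The highest value was that of Control replicate 2 and the lowest that of NIHHL replicate 4, and the groups overlapped. Sod2, the mitochondrial enzyme, averaged 202.0 ± 13.95 CPM in NIHHL and 206.6 ± 9.46 CPM in Control (SD, n = 4 and 3). Its deposited counts carried decimals in every library and so are estimates. Sod3, the secreted enzyme, averaged 11.1 ± 3.09 CPM in NIHHL and 10.2 ± 2.23 CPM in Control.

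The glutathione peroxidases included the genes that differed most between single libraries. Gpx4 reduces lipid hydroperoxides in membranes and restrains ferroptosis. It was at 253.9, 230.8, 260.6 and 177.8 CPM in NIHHL, against 179.1, 321.5 and 247.4 CPM in Control. NIHHL replicate 4 and Control replicate 1 were low and nearly equal, Control replicate 2 was highest, and the groups overlapped. Gpx1, the main cytosolic peroxidase, averaged 47.3 ± 3.69 CPM in NIHHL and 48.6 ± 9.46 CPM in Control (SD, n = 4 and 3). Gpx7, a peroxidase of the endoplasmic reticulum, was the lowest of the list in CPM, at 2.92 ± 0.795 CPM in NIHHL and 3.09 ± 0.308 CPM in Control.

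Gpx8, the other peroxidase of the endoplasmic reticulum, had the largest log2 fold change of the list and was named after its values were seen. It was at 20.5, 8.74, 17.8 and 9.79 CPM in NIHHL, against 6.34, 17.5 and 9.48 CPM in Control. The high libraries were NIHHL replicates 1 and 3 and Control replicate 2, and the groups overlapped. The log2 fold change of 0.34 had an SE of 0.45, with an adjusted p of 0.996 by edgeR. Leaving out Control replicate 2 gave 0.84, leaving out Control replicate 1 gave 0.08, and leaving out NIHHL replicate 1 gave 0.11. Gpx3, the secreted plasma peroxidase, was at 10.45, 7.13, 7.27 and 9.496 CPM in NIHHL, against 4.65, 13.5 and 7.59 CPM in Control.

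The libraries also differed in choroid plexus markers. The 15 markers, none of them at 0 in every library, summed to 12151, 1043, 6488 and 6527 CPM in NIHHL and to 399.6, 9333 and 2361 CPM in Control, and all 15 were higher in NIHHL, with 0 called. Choroid plexus is the ventricular tissue that secretes cerebrospinal fluid, and in bulk tissue fewer cells of a type and less RNA per cell cannot be told apart. Gpx8 and Gpx3 were lowest in Control replicate 1, the library with the lowest marker sum, and the libraries with the highest sums, NIHHL replicate 1 and Control replicate 2, were among the 3 highest for both genes. In the other libraries the order of the sums was kept in part. NIHHL replicates 3 and 4, with sums of 6488 and 6527 CPM, had Gpx8 at 17.8 and 9.79 CPM and Gpx3 at 7.27 and 9.496 CPM. NIHHL replicate 2, with a sum of 1043 CPM, had Gpx8 at 8.74 and Gpx3 at 7.13 CPM. It was next above Control replicate 1 in the sum and in both genes. Control replicate 3, with a sum of 2361 CPM, had Gpx8 at 9.48 and Gpx3 at 7.59 CPM. With the marker level as a covariate the log2 fold change of Gpx8 was 0.01. The part of choroid plexus content in these levels was not otherwise tested.

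**Figure D2:**
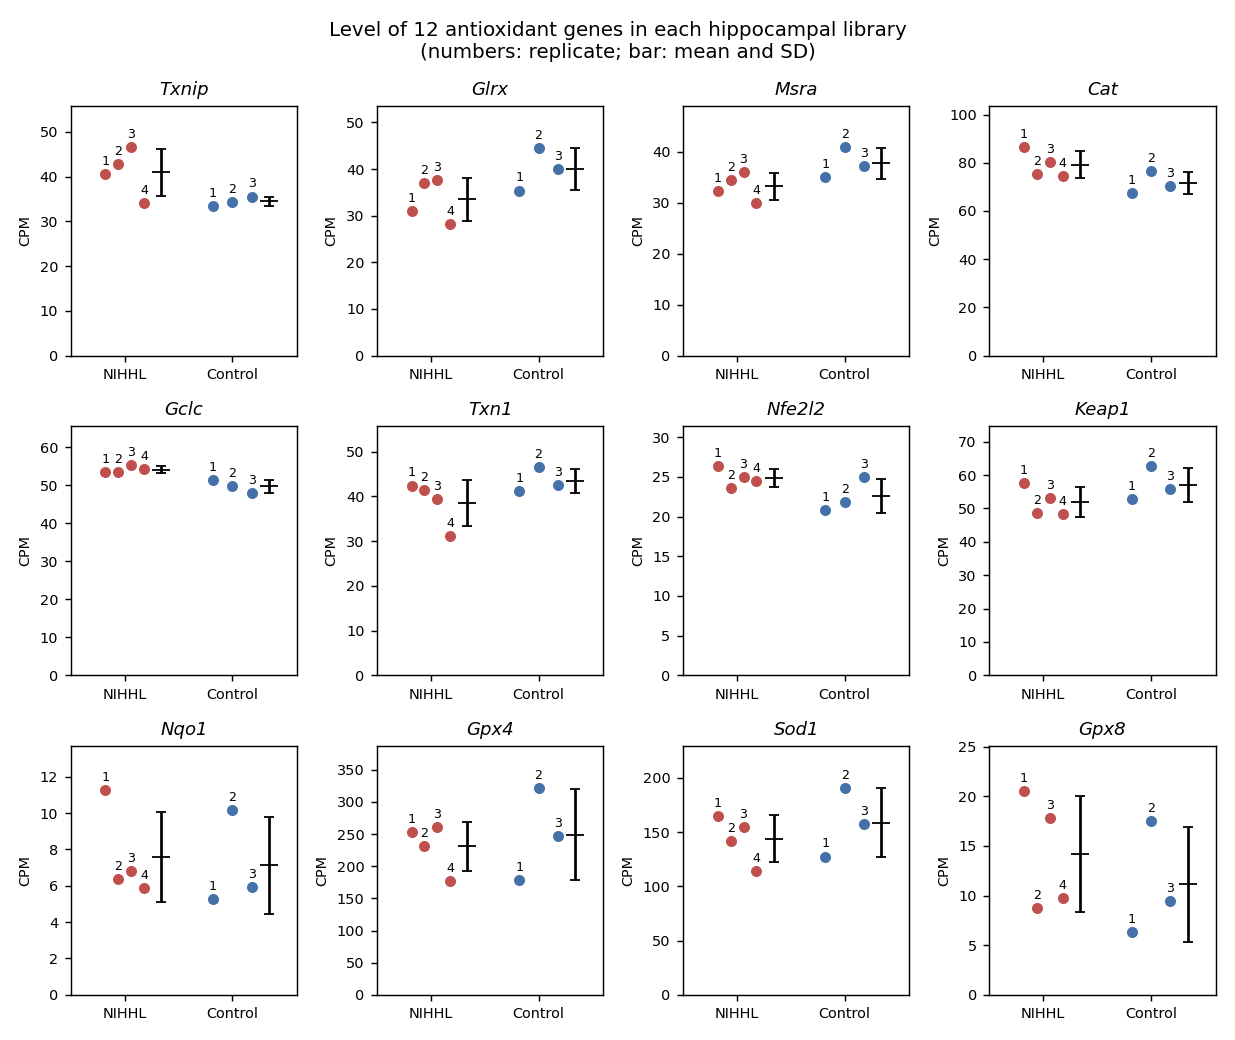
CPM of 12 genes of the list in each library (y axis from 0), with NIHHL left of Control, the replicate number above each point and the mean with its SD beside the points. In Gclc the 4 NIHHL points lie above the 3 Control points, and in the other 11 genes the groups overlap.

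None of the peroxiredoxins, abundant thiol peroxidases, passed the test. Prdx2, a cytosolic form prominent in neurons, was at 178.2, 177.2, 180.9 and 160.7 CPM in NIHHL, against 165.9, 212.4 and 185.9 CPM in Control, with a log2 fold change of -0.11 (SE 0.09, adjusted p = 0.996, edgeR). Prdx5, found in mitochondria, peroxisomes and cytosol, was at 164.6, 147.1, 156.9 and 127.4 CPM in NIHHL, against 141.5, 198.5 and 152.9 CPM in Control, with a log2 fold change of -0.14 (SE 0.12, adjusted p = 0.996, edgeR). In both genes Control replicate 2 was the highest library and NIHHL replicate 4 the lowest. Without Control replicate 2 the log2 fold change of Prdx5 was 0.02 and that of Prdx2 was -0.01. Prdx5 shares 409 exon bases with Trmt112 on the opposite strand and its counts carried decimals in every library, so reads there are uncertain.

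Prdx1, a stress-inducible cytosolic form, averaged 218.6 ± 16.2 CPM in NIHHL and 223.9 ± 47.1 CPM in Control (SD, n = 4 and 3). Prdx3, the mitochondrial form, averaged 81.9 ± 11.1 CPM in NIHHL and 83.2 ± 12.8 CPM in Control, and Prdx4, that of the endoplasmic reticulum, 16.5 ± 2.89 CPM against 16.4 ± 4.29 CPM in Control. Prdx6, which is known for its high level in astrocytes, averaged 263.5 ± 20.8 CPM in NIHHL and 251.4 ± 10.75 CPM in Control. Srxn1 encodes sulfiredoxin, which repairs over-oxidised peroxiredoxins and is an established NRF2 target. It was the steadiest gene of the list between libraries, at 72.1, 71.7, 70.1 and 72.7 CPM in NIHHL and 72.3, 74.7 and 76.5 CPM in Control, a 1.09-fold span from lowest to highest.

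The 2 genes with a p under 0.05 before adjustment both belonged to the thioredoxin and glutaredoxin systems, but which genes had such a p changed with single libraries. Without Control replicate 1 they were Glrx, Hmox2, Msra and Prdx2, against 5.51% of all genes with such a p. Without Control replicate 2 they were Cat and Gstm7, against 4.6%, and without Control replicate 3 Nfe2l2, against 3.76%. Leaving out NIHHL replicate 1 gave Txnip, against 2.73%, and replicate 2 Glrx, against 3.73%. Without NIHHL replicate 3 they were Glrx and Msra, against 2.78%, and without replicate 4 Cat and Txnip, against 3.87%. Txnip, whose promoter is printed above, was at 40.6, 42.8, 46.6 and 34.03 CPM in NIHHL, against 33.5, 34.4 and 35.6 CPM in Control. Of the NIHHL libraries, replicates 1 to 3 lay above every Control library and replicate 4 lay among them. The log2 fold change was 0.25 (SE 0.10, 95% interval 0.03 to 0.47), with an adjusted p of 0.996 by edgeR, and it ranked 311 of 14417 genes. Txnip shares 606 exon bases with the antisense gene Gm15441, and the labels do not state whether the libraries kept strand.

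Glrx, a cytosolic glutaredoxin that removes glutathione from protein thiols, was at 31.1, 37.0, 37.6 and 28.3 CPM in NIHHL, against 35.4, 44.5 and 40.04 CPM in Control. NIHHL replicates 1 and 4 lay below every Control library and replicates 2 and 3 within the Control range. The log2 fold change was -0.26 (SE 0.11, 95% interval -0.51 to -0.0051), with an adjusted p of 0.996 by edgeR. Msra, which reduces oxidised methionine in proteins, was at 32.4, 34.5, 36.1 and 30.0 CPM in NIHHL, against 35.0, 41.0 and 37.3 CPM in Control. NIHHL replicate 3 alone lay within the Control range, and the log2 fold change was -0.18 (SE 0.09, adjusted p = 0.996, edgeR).

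Txn1, the cytosolic thioredoxin that TXNIP binds, was at 42.4, 41.4, 39.4 and 31.1 CPM in NIHHL, against 41.2, 46.5 and 42.6 CPM in Control. NIHHL replicate 4 was well below the other libraries, and the log2 fold change was -0.17 (SE 0.11, adjusted p = 0.996, edgeR). None of the remaining members of this group passed the test. Txn2, the mitochondrial thioredoxin, averaged 89.7 ± 8.63 CPM in NIHHL and 92.6 ± 6.66 CPM in Control (SD, n = 4 and 3). The reductases Txnrd1 (cytosolic) and Txnrd2 (mitochondrial) averaged 63.6 ± 2.59 and 9.08 ± 0.486 CPM in NIHHL, against 60.9 ± 1.58 and 9.32 ± 1.10 CPM in Control. Glrx2, a mitochondrial glutaredoxin, averaged 43.4 ± 3.76 CPM in NIHHL and 45.7 ± 1.33 CPM in Control.

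Glutathione synthesis, recycling and cystine import had the largest share of genes higher in NIHHL of any role, 4 of 5. Of all genes 49.9% were higher. The median log2 fold change of the role was 0.10 and 0 genes were called. Among the 4, Gsr had a log2 fold change of only 0.0015. Gclc encodes the catalytic subunit of glutamate-cysteine ligase, the rate-limiting enzyme of glutathione synthesis. It was at 53.5, 53.3, 55.2 and 54.2 CPM in NIHHL, against 51.4, 49.8 and 48.0 CPM in Control. The lowest NIHHL library was above the highest Control library. The difference was small, with a log2 fold change of 0.12 (SE 0.06, 95% interval -0.02 to 0.26) and an adjusted p of 0.996 by edgeR.

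Gclm, the modifier subunit of the same ligase, was at 54.2, 63.3, 57.9 and 65.1 CPM in NIHHL, against 58.5, 51.4 and 57.8 CPM in Control. The groups overlapped, and the log2 fold change was 0.11 (SE 0.08, adjusted p = 0.996, edgeR). Slc7a11, the cystine importer that supplies cysteine for glutathione, was at 46.8, 50.6, 47.2 and 48.0 CPM in NIHHL, against 55.3, 32.5 and 47.3 CPM in Control. The NIHHL values were close together and the Control values held both the highest and the lowest library. Gss, which completes glutathione, averaged 18.5 ± 1.57 CPM in NIHHL and 18.5 ± 0.502 CPM in Control, and Gsr, which recycles it, 28.2 ± 1.97 CPM against 28.2 ± 1.40 CPM in Control (SD, n = 4 and 3).

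The glutathione transferases, which conjugate glutathione to lipid aldehydes and other electrophiles, held the most abundant transcripts of the list per unit of length. As TPM, counts scaled by exon length, Gstm1 averaged 552.8 ± 56.2 in NIHHL and 502.9 ± 45.5 in Control, and Gstm5 502.9 ± 68.8 in NIHHL and 519.9 ± 65.5 in Control (SD, n = 4 and 3). Over all 7 libraries Gstm1, Gstm5 and Gpx4 had the highest TPM, in that order, at 531.4 ± 54.6, 510.2 ± 62.3 and 426.0 ± 72.5, and the first and second of these did not differ beyond their spread. The lowest were Sod3, Gpx7 and Txnrd2, at 8.88 ± 2.06, 7.17 ± 1.34 and 6.45 ± 0.402 TPM. These orderings rest on exon lengths from GENCODE M21, and the annotation behind the deposited counts may differ.

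Gstm7 was at 28.7, 33.0, 27.4 and 27.4 CPM in NIHHL, against 22.2, 30.2 and 25.04 CPM in Control. Control replicate 2 lay within the NIHHL range and the log2 fold change was 0.17 (SE 0.11, adjusted p = 0.996, edgeR). Gsto1, an omega-class transferase, was at 32.3, 34.4, 32.3 and 28.6 CPM in NIHHL, against 33.0, 36.0 and 33.3 CPM in Control, with a log2 fold change of -0.10 (SE 0.08, adjusted p = 0.996, edgeR). Gsta4, which acts on lipid peroxidation aldehydes, averaged 52.7 ± 7.76 CPM in NIHHL and 56.7 ± 13.2 CPM in Control, and Gstp1 averaged 135.6 ± 11.3 CPM against 143.8 ± 22.6 CPM in Control (SD, n = 4 and 3). The mu-class genes Gstm1, Gstm5 and Gstm7 lie in a cluster on chromosome 3 with similar sequences, and Gstp1 had decimals in every library, so reads may be divided with paralogs.

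The regulators of the pathway came out on opposite sides of 0 and neither passed. Nfe2l2, which encodes NRF2, was at 26.3, 23.6, 25 and 24.5 CPM in NIHHL, against 20.8, 21.8 and 24.95 CPM in Control. NIHHL replicates 1 and 3 lay above every Control library, and Control replicate 3 was in the midst of the NIHHL values. For Nfe2l2 the log2 fold change was 0.14 (SE 0.09, adjusted p = 0.996, edgeR). Keap1, the adaptor that sends NRF2 to degradation, was at 57.7, 48.5, 53.1 and 48.2 CPM in NIHHL, against 52.7, 62.6 and 55.8 CPM in Control, with a log2 fold change of -0.14 (SE 0.09, adjusted p = 0.996, edgeR). Keap1 shares 510 exon bases with an antisense gene. NRF2 is controlled mainly through protein stability, which transcript counts do not measure.

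The targets and heme oxygenases did not pass the test either. Nqo1, a quinone reductase often used as an indicator of NRF2 activity, was at 11.3, 6.38, 6.83 and 5.90 CPM in NIHHL, against 5.26, 10.19 and 5.94 CPM in Control. A single library stood high in each group, NIHHL replicate 1 and Control replicate 2, which were also the libraries with the most choroid plexus marker signal. For Nqo1 the log2 fold change was 0.08 (SE 0.28, adjusted p = 0.996, edgeR), and it was -0.13 with the choroid plexus markers as a covariate and -0.18 without NIHHL replicate 1. Hmox1, the inducible heme oxygenase, averaged 6.16 ± 0.779 CPM in NIHHL and 5.63 ± 0.439 CPM in Control (SD, n = 4 and 3). Hmox2, the constitutive form, was at 81.4, 82.3, 84.0 and 75.9 CPM in NIHHL, against 77.7, 102.3 and 84.0 CPM in Control, with a log2 fold change of -0.12 (SE 0.09, adjusted p = 0.996, edgeR). It shares 892 exon bases with Cdip1 on the opposite strand.

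Much of the variation in the list ran between libraries rather than between groups. Control replicate 2 was the highest library for 20 of 40 genes, against 22.8% of all genes, and NIHHL replicate 4 the lowest for 19 of 40, against 22.3%. The median deviation of the 40 genes from their own mean over libraries was 0.04, -0.02, 0.03 and -0.16 on the log2 scale in NIHHL replicates 1 to 4, and -0.11, 0.20 and 0.02 in Control replicates 1 to 3. The same 3 libraries, Control replicates 1 and 2 and NIHHL replicate 4, stood apart in a trend with transcript length. Over 8382 genes with a mean log2 CPM above 4, the Spearman correlation between a gene's deviation and its exon length was -0.17, 0.10, -0.33 and 0.52 in NIHHL and 0.45, -0.58 and -0.10 in Control. This correlation is across genes, which are not independent replicates.

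Single libraries also moved the log2 fold changes of named genes by over 1.5 times. Without Control replicate 2, Glrx was at -0.17, Msra at -0.12, Keap1 at -0.06, Gsto1 at -0.05, Gclm at 0.05 and Gstm7 at 0.30, while Hmox2 was at 0.0038. Without NIHHL replicate 4, Txn1 was at -0.08, Prdx2 at -0.07, Prdx5 at -0.07, Gsto1 at -0.05 and Gclm at 0.07. Leaving out Control replicate 1 gave 0.07 for Gstm7, 0.09 for Nfe2l2, -0.19 for Prdx2, -0.24 for Prdx5 and -0.20 for Hmox2. Nfe2l2 was at 0.22 without Control replicate 3, and Gstm7 at 0.11 without NIHHL replicate 2. Txnip, Cat, Gclc and Abcc4 moved by less than 1.5 times when any 1 library was left out.

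**Figure D3:**
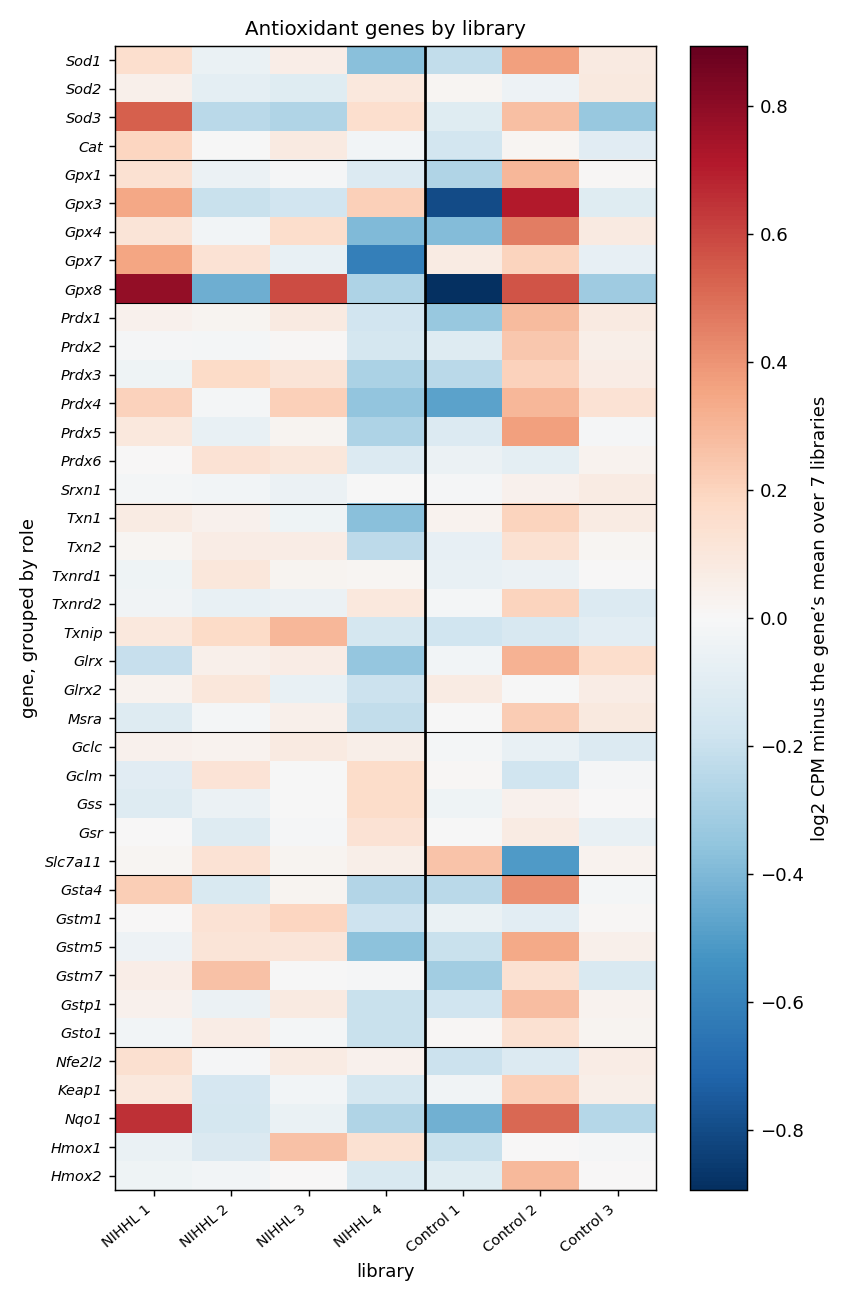
Deviation of each gene's log2 CPM from its mean over the 7 libraries (colour), with genes grouped by role on the y axis and NIHHL libraries left of Control libraries on the x axis. Control 2 is mostly above the mean and Control 1 and NIHHL 4 mostly below it. Genes of several roles run the other way in Control 2, among them Slc7a11, Gclm, Txnip, Nfe2l2, Gstm1 and Prdx6.

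The 40 genes were short, with a median exon length of 2787 bases against 4540 over all tested genes. Members longer than the median of all tested genes did not share 1 order of libraries. Slc7a11, with 13922 exon bases, was lowest in Control replicate 2. Sod2, with 10008, Gclm, with 6291, and Gss, with 5915, were highest in NIHHL replicate 4. Txnrd1, with 7086, and Prdx6, with 4804, were highest in NIHHL replicate 2. Glrx, with 5494, and Keap1, with 4693, were highest in Control replicate 2 and lowest in NIHHL replicate 4, and Glrx2, with 8772, was also lowest in NIHHL replicate 4. With each library's length trend removed, the median log2 fold change of the list was -0.01 and 0 genes were called. In that fit 19 of 40 genes were higher in NIHHL, against 49.5% of all genes. Before adjustment 5 of 40 then had a p under 0.05 (Txnip, Cat and Gstm7 higher in NIHHL, Glrx and Msra lower), against 4.74% of all genes. The smallest adjusted p of the list in that fit was 0.978.

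**Figure D4:**
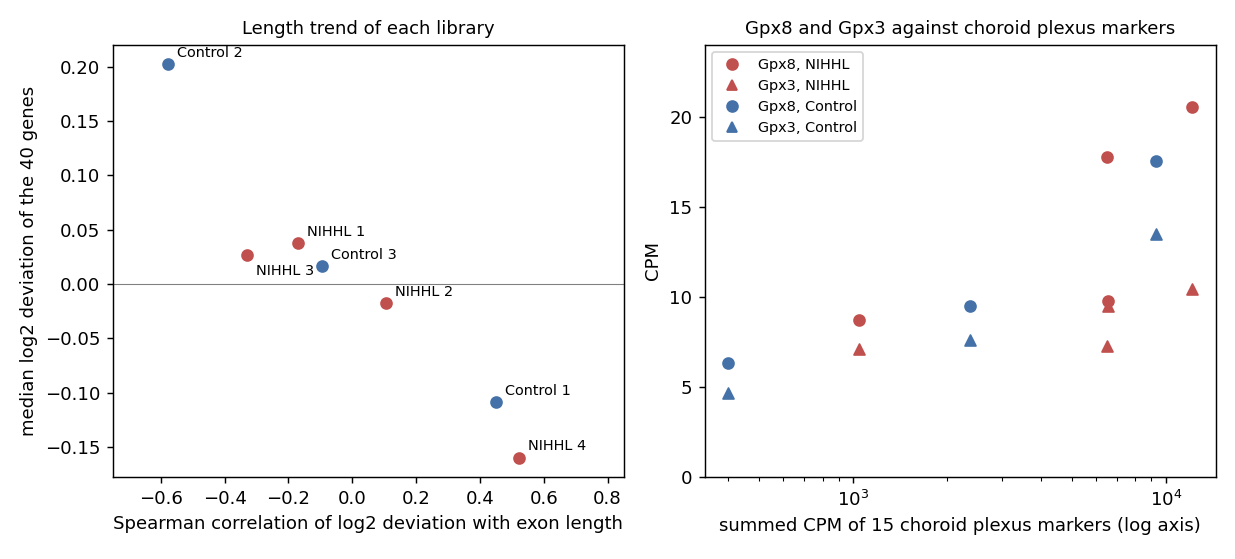
Left, the median log2 deviation of the 40 genes in each library (y axis) against that library's correlation of log2 deviation with exon length (x axis); right, CPM of Gpx8 (circles) and Gpx3 (triangles) against the summed CPM of 15 choroid plexus markers on a log axis, with NIHHL in red and Control in blue. Control 2 lies at the upper left and NIHHL 4 and Control 1 at the lower right of the left plot, and Control 1 is lowest for both genes in the right plot.

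Markers of other cells that carry these enzymes were also set side by side. All marker lists, that of choroid plexus included, were chosen with earlier results of these data known. Over all genes, 49.9% were higher in NIHHL. Of 10 astrocyte markers, all 10 were higher in NIHHL and 0 were called, and their summed level was 5682 to 6221 CPM in NIHHL and 5061 to 6281 CPM in Control, with none at 0 in every library. Erythrocyte markers, which matter for Cat and Prdx2 as abundant red cell proteins, were higher in NIHHL for 2 of 5 tested genes and summed to 209.1 to 595.0 CPM in NIHHL and 182.0 to 628.6 CPM in Control. Endothelial markers summed to 226.0 to 233.0 CPM in NIHHL and 227.1 to 256.8 CPM in Control (3 of 10 higher), and microglial markers to 515.3 to 642.5 CPM in NIHHL and 546.9 to 579.6 CPM in Control (6 of 10 higher). Of the 10 hippocampal neuron markers, whose sums are given above, 4 were higher in NIHHL. Summed ependymal markers did not overlap between the groups, at 114.0 to 135.1 CPM in NIHHL and 75.1 to 93.5 CPM in Control. Taken singly, 5.2% of all genes did not overlap. Of the ependymal markers, 12 of 12 were higher and 0 were called by edgeR, while DESeq2 called Dnah6. The list holds genes with some of the smallest p of all genes, such as Dnah6 and Ak7, so its separation is not an independent result. Oligodendrocyte markers summed to 8398 to 9875 CPM in NIHHL and 7293 to 9142 CPM in Control (9 of 10 higher), and meningeal markers to 190.4 to 445.8 CPM in NIHHL and 150.7 to 284.7 CPM in Control (9 of 10 higher), with 0 called in either list. Their part in the levels of the 40 genes was not tested.

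In the rest of the pathway no gene passed the test either. Of 79 further genes in 7 lists, held in 80 table rows, 74 rows were tested, 37 were higher in NIHHL and 37 lower, and 0 were called. Among the lists, NADPH-supplying enzymes were higher in NIHHL in 8 of 9 rows, with a median log2 fold change of 0.04. Both rows of the gene Nnt were among the higher ones, at 0.09 and 0.42, and the share of all genes that were higher was 49.9%. Other glutathione transferases were lower in 8 of 12, with a median of -0.07. Partners and regulators of NRF2 were lower in 7 of 9 (median -0.04) and other NRF2 targets higher in 6 of 8 (median 0.11). The 18 further thiol and methionine enzymes (8 higher, median -0.04), the 13 genes of glutathione turnover and cysteine supply (6 higher, median -0.01) and the 5 genes of heme and iron handling (3 higher, median 0.01) had medians near 0.

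The smallest p among these rows was that of Abcc4, an exporter of organic anions that NRF2 is known to induce. It was at 21.1, 16.5, 17.0 and 18.7 CPM in NIHHL, against 12.9, 16.7 and 14.01 CPM in Control, so that NIHHL replicate 2 lay just below the highest Control library. The log2 fold change was 0.33 (SE 0.12, adjusted p = 0.996, edgeR), and 0.23 with the choroid plexus markers as a covariate. The next were Ggt5, a gamma-glutamyl transferase, at 2.06 ± 0.811 CPM in NIHHL and 1.35 ± 0.354 CPM in Control, and Maff, a small partner of NRF2, at 0.816 ± 0.174 against 1.19 ± 0.374 CPM in Control. Abcc1, an exporter of glutathione conjugates, was at 21.8 ± 2.09 CPM in NIHHL and 19.2 ± 2.63 CPM in Control (SD, n = 4 and 3). Their log2 fold changes were 0.60 (SE 0.33) for Ggt5, -0.57 (SE 0.32) for Maff and 0.18 (SE 0.12) for Abcc1, each with an adjusted p of 0.996 by edgeR. Ggt5 was at 0.28 without NIHHL replicate 1 and 0.38 with the choroid plexus covariate. Maff was at -0.34 without Control replicate 3. Leaving out Control replicate 3 gave 0.08 for Abcc1, leaving out Control replicate 2 gave 0.29, and both the omission of NIHHL replicate 1 and that covariate gave 0.12.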

How the data were processed

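The deposited table holds expected counts (estimated, partly decimal, not scaled to library size) made by the authors for each gene in 7 hippocampal libraries, with Ensembl identifiers and symbols. Per the submitters' processing notes Bowtie2 2.2.8, HISAT2, StringTie 1.3.1 and DESeq2 were used; no source used here gives their roles, the genome build, the annotation or the strandedness. Per the labels' protocols, mRNA was selected by its poly(A) tail.

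Counts were rounded to whole numbers. Genes passing edgeR's filterByExpr at a minimum count of 10 were scaled by TMM and tested with edgeR's quasi-likelihood test (robust, group as the only term), with p-values adjusted by the Benjamini-Hochberg method over all genes tested and calls at an adjusted p under 0.05. Each SE was derived from the log2 fold change and its F statistic, and unadjusted p-values are given as counts of genes only. Software was R 4.3.3, edgeR 4.0.16, limma 3.58.1 and DESeq2 1.42.0. The fit was tested on simulated data. Exon lengths came from GENCODE M21, which held all 40 genes, and promoters from RefSeq. The list members, the other pathway lists and the cell markers were chosen with earlier results of these data known.

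Genes named with a fold change were the 14 list members with the smallest p, Nfe2l2, Keap1 and Nqo1, and the 4 other pathway genes with the smallest p; Gpx8 was added after its values were seen. Alternatives covered scaling, filters, DESeq2, limma-voom, left-out libraries, a replicate block, a choroid plexus covariate and a length correction.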

Additional observations from a re-analysis of the deposited data

Results flagged for a closer look

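Over the NIHHL group of 4 libraries, each of the 40 genes was examined for a library far from the others. Txn2, the mitochondrial thioredoxin, was the only gene past Dixon's 95% critical value: the gap between NIHHL replicate 4, at 76.9 CPM, and the nearest of the other NIHHL libraries was 0.842 of the group's whole range of log2 CPM. Those libraries were at 92.0, 94.8 and 95.1 CPM, and the Control libraries at 86.3, 99.6 and 91.8 CPM. Chance flags about 1 in 20 groups.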

How the results depend on the processing

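No list member and no other pathway gene was called under any of the 16 alternatives. Over all genes, DESeq2 called 4 (mt-Atp8, Hsd3b1, Akr1cl and Dnah6), and 1 (a row named Gcat) was called with Control replicate 2 and NIHHL replicate 4 both left out. With those libraries out, 30 of 40 genes were higher in NIHHL, against 51.5% of all genes, and the median log2 fold change was 0.10. In that fit 7 genes did not overlap, against 23.7% of all genes. Hmox2 was then at 0.0324, Prdx2 at 0.025 and Prdx5 at 0.0882. Leaving out 1 library at a time gave 13 to 30 genes higher in NIHHL, against 48.9% to 51.5% of all genes. Between 2 and 8 genes did not overlap, against 7.84% to 15.7% of all genes, with both highest values without Control replicate 1. Leaving out 1 library gave log2 fold changes of -0.20 to 0.0038 for Hmox2, -0.24 to 0.0208 for Prdx5 and -0.18 to 0.45 for Nqo1. The choroid plexus covariate gave -0.13 for Nqo1, and the length correction gave 2 genes that did not overlap, against 6.28% of all genes. The cause of these shifts was not tested. Of 318 values of named genes, 309 kept their direction and their side of the threshold. Same-numbered libraries did not deviate together (correlation -0.448, -0.445 and 0.0612 over replicates 1 to 3), which gives no sign of pairing, though so few correlations cannot settle it. The fit with a replicate block used replicates 1 to 3 and so left out NIHHL replicate 4. It called 0 genes, with a median of 0.03 and 23 of 40 higher, against 50.2% of all genes. Leaving out NIHHL replicate 4 without a block gave a median of -0.0054 and 19 of 40 higher, against 48.9%. Counting error limits the low genes most: the lowest library had 12 counts for Maff, 14 for Ggt5, 32 for Gpx7, 69 for Gpx3, 76 for Hmox1 and 78 for Nqo1.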
